A study of Mus musculus with 2 samples.

Results

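The phagocyte NADPH oxidase subunits were represented by 5 genes, Cybb, Cyba, Ncf1, Ncf4 and Rac2, and by all 10 probe sets whose platform annotation names 1 of these genes and no other, out of 45037 probe sets and 18193 named genes. Gene expression was measured on 2 Affymetrix 3' expression arrays of mouse hematopoietic stem cells (HSC, the bone marrow cells from which all blood lineages arise). The genotypes were SIRT6 knockout and wild type, with 1 array each, and the mice of both were 3 months old. Sirt6 encodes a nuclear NAD-dependent deacylase of histones. The sources used here do not say how the allele was disrupted, how the cells were sorted or how many mice gave RNA. With 1 array per genotype no difference below has a replicate check, and no p-value, SD between samples or test was computed.

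The phagocyte NADPH oxidase transfers electrons from NADPH across a membrane to oxygen and makes superoxide, from which neutrophils and macrophages derive other microbicidal oxidants. Its catalytic core is flavocytochrome b558, a membrane heterodimer of Cybb (gp91phox, also called Nox2) and Cyba (p22phox). In a resting cell the organizer Ncf1 (p47phox) and Ncf4 (p40phox) stay in the cytosol. On stimulation Ncf1 is phosphorylated, the cytosolic subunits bind the flavocytochrome, and the GTPase Rac2 joins in its GTP-bound form. Loss of the flavocytochrome or of a cytosolic phox subunit causes chronic granulomatous disease, and reactive oxygen species are known to influence HSC quiescence.

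Promoter sequence was available for 3 of the 5 genes, Cybb, Cyba and Ncf1. The sequences are shown because these genes include both membrane partners, whose ratios pointed in opposite directions, and the cytosolic organizer. Each runs 5′ to 3′ over 240 bases and ends 11 bases before the annotated start, from RefSeq on GRCm38.p6. All 3 lie on the minus strand, at chrX:9469335-9469574 for Cybb, chr8:122432951-122433190 for Cyba and chr5:134229636-134229875 for Ncf1. Capitals mark matches, on either strand, to the motifs searched, which were the PU.1-type core GAGGAA, the CCAAT box CCAAT and the GC box GGGCGG.
Cybb: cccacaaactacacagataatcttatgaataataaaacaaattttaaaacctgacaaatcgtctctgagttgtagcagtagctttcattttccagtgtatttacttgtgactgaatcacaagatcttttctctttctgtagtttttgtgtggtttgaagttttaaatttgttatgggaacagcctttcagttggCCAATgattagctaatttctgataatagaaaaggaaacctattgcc
Cyba: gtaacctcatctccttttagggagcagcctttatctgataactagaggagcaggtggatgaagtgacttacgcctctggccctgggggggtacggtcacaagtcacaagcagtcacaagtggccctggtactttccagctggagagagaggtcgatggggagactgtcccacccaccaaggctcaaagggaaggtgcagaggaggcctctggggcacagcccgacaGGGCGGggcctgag
Ncf1: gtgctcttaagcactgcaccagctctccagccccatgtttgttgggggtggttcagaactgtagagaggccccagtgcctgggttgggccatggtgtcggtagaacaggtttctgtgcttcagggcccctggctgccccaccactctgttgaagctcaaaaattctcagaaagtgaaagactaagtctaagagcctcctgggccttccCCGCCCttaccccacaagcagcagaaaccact

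The windows of the membrane partners differed in base composition. GC content was 32.9% for Cybb and 58.8% for Cyba, with 55.8% for Ncf1 and a median of 52.1% over 32851 promoter windows of the same length. The Cybb window held 1 CCAAT box, which begins 56 bases upstream of the start, and no GC box. The Cyba and Ncf1 windows each held 1 GC box, beginning 24 and 42 bases upstream, and no CCAAT box. A CCAAT box was present in 33.0% and a GC box in 31.3% of all windows. The letters GAGGAA were in none of the 3 windows and in 22.3% of all windows. Only these exact letters were searched, so their absence does not show that a window lacks a PU.1 site. These matches describe the letters only.

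Cybb was higher on the array labelled knockout, and Cyba was not. Of the 5 genes, 4 had a ratio above 1 on their brightest probe set and Cyba had a ratio below 1. Cybb was the only one of the 5 at least 1.5-fold different, and it was also past 2-fold, as were 0.398% of all measured genes in that direction. This call rests on the probe set 1436778_at. As the median over its probe sets the log2 ratio of Cybb was 0.44, under 1.5-fold. That value is a lower bound from 1436779_at, whose wild-type signal was under the floor and whose log2 ratio without the floor was 1.04. The Cybb ratio was 0.72 with a pseudocount of 1 floor, under 2-fold, and with the floor at percentile 75 Cybb was not measured. Ncf1 followed at 1.44-fold and Ncf4 at 1.25-fold, while Rac2 read 1.04-fold. The median log2 ratio of the 5 genes was 0.32, against 0.0023 for all 11547 measured genes. A gene counted as measured when its brightest probe set exceeded a floor of 60.5 signal units (the median, across the table, of each probe set's mean log2 signal) on at least 1 array. Over the measured genes as a whole, 1.71% were higher by 1.5-fold or more, 2.63% were lower by that size and 50.4% had a ratio above 1.

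**Figure D1:**
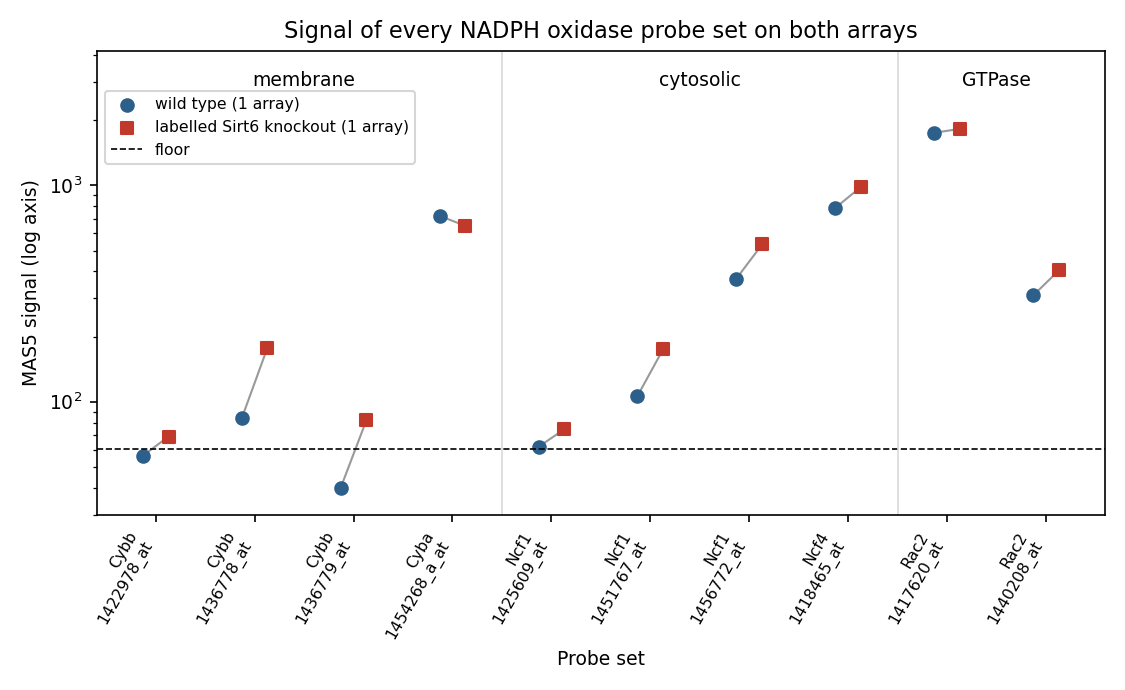
MAS5 signal (log axis) of the 10 oxidase probe sets, with wild type as circles, the array labelled knockout as squares and the floor of 60.5 signal units as a dashed line; each point is 1 array. In 9 of 10 probe sets the square lies above the circle, and Cyba is the exception.

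Cybb encodes the catalytic subunit, which carries the flavin and hemes. Its brightest probe set, 1436778_at, read 177.7 in the RNA labelled knockout and 83.8 in wild type, which is 2.12-fold higher (log2 1.08). Probe set 1436779_at read 82.0 and 39.9. The wild-type value lies under the floor, so the ratio is given as at least 1.36-fold, and the deposited signals themselves had a ratio of 2.05. Probe set 1422978_at read 68.9 and 56.2, also under the floor in wild type, which gives at least 1.14-fold. All 3 probe sets were higher on the array labelled knockout, and they differed in size. In bulk RNA, more cells that express a gene and more RNA per cell cannot be told apart. Probe sets 1436778_at and 1436779_at were designed from the same sequence record and are not independent of each other; the 3 probe sets represent 2 records. Only 1436778_at was above the floor on both arrays.

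Cyba encodes the partner that stabilises Cybb and docks Ncf1. Its single probe set, 1454268_a_at, read 650.4 on the array labelled knockout and 723.7 in wild type, a log2 ratio of -0.15. It was well above the floor on both arrays. The log2 ratios of Cybb and Cyba differed by 1.24. For scale, log2 ratios of different probe sets for 1 gene had an SD of 0.22, taken over the 4632 genes for which 2 or more probe sets exceeded the floor on both arrays; this is a technical spread and holds no variation between mice. The SD of 0.22 is that of single ratios pooled over all brightness levels, not of a difference between 2 genes. Among probe sets within 0.5 of their mean log2 signal, without the floor, the SD was 0.38 for Cybb 1436778_at and 0.25 for Cyba. With each gene read as the median of its probe sets, the difference within the membrane pair was 0.59. This is a lower bound, because the Cybb median is a lower bound.

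Ncf1, the organizer whose phosphorylation starts assembly, was higher on all 3 of its probe sets. Probe set 1456772_at, the brightest, read 533.6 and 371.0 (log2 ratio 0.52). Probe set 1451767_at read 175.0 and 106.2 (log2 0.72, 1.65-fold). Probe set 1425609_at read 74.4 and 61.8 (log2 0.27), just above the floor in wild type. The last 2 were designed from the same sequence record. Across probe sets the log2 ratio of Ncf1 ranged over 0.45, so whether it passed 1.5-fold depended on the probe set read.

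Ncf4, which binds phosphatidylinositol 3-phosphate on phagosomes and supports oxidase activity there, had 1 probe set, 1418465_at. It read 986.2 on the array labelled knockout and 787.6 in wild type (log2 0.32). Rac2 encodes the blood-specific Rac GTPase, which besides the oxidase acts in migration and marrow retention of stem and progenitor cells. Its brightest probe set, 1417620_at, read 1828 and 1753 (log2 0.06), and 1440208_at read 405.0 and 310.0 (log2 0.39). Both Rac2 probe sets were above the floor on both arrays and neither reached 1.5-fold.

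Over the 10 probe sets, 8 were above the floor on both arrays and the 2 others, both of Cybb, were under it in wild type. At least 1.5-fold higher were 2 of 10 (1436778_at of Cybb and 1451767_at of Ncf1) and 0 of 10 were at least 1.5-fold lower. Among all 23601 measured probe sets these shares were 1.65% and 4.11%. Without the floor, 3 of 10 passed 1.5-fold, against 5.72% of all probe sets. Of the 10, 9 had a higher signal on the array labelled knockout, against 53.8% of all probe sets. Since several probe sets report the same gene, these counts do not rest on 10 independent readings.

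The deposited signals of each probe set, without the floor, were also set beside those of like brightness (mean log2 signal within 0.5), because MAS5 ratios scatter more widely at low signal. The SD of the log2 ratio was 0.38 around Cybb 1436778_at and 0.19 around Rac2 1417620_at. A higher ratio than that of Cybb was found in 0.43% of the probe sets like 1436778_at and in 0.52% of those like 1436779_at, while for 1422978_at it was 20.4%. For Ncf1 the shares were 1.48% (1451767_at), 1.83% (1456772_at) and 21.7% (1425609_at). For Ncf4 it was 3.94%, and for Rac2 3.77% (1440208_at) and 33.2% (1417620_at). Cyba lay on the other side, with 79.8% of like probe sets higher. In this ranking 5 of the 8 probe sets that exceeded the floor on both arrays fell in the top 5% for their brightness. Probe set 1436779_at did as well, but its wild-type signal was under the floor, so its rank rests on a value that counts elsewhere only as a bound. The modest ratio of Ncf4 thus ranked among the highest of its brightness range, and the dim probe sets 1422978_at of Cybb and 1425609_at of Ncf1 did not.

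**Figure D2:**
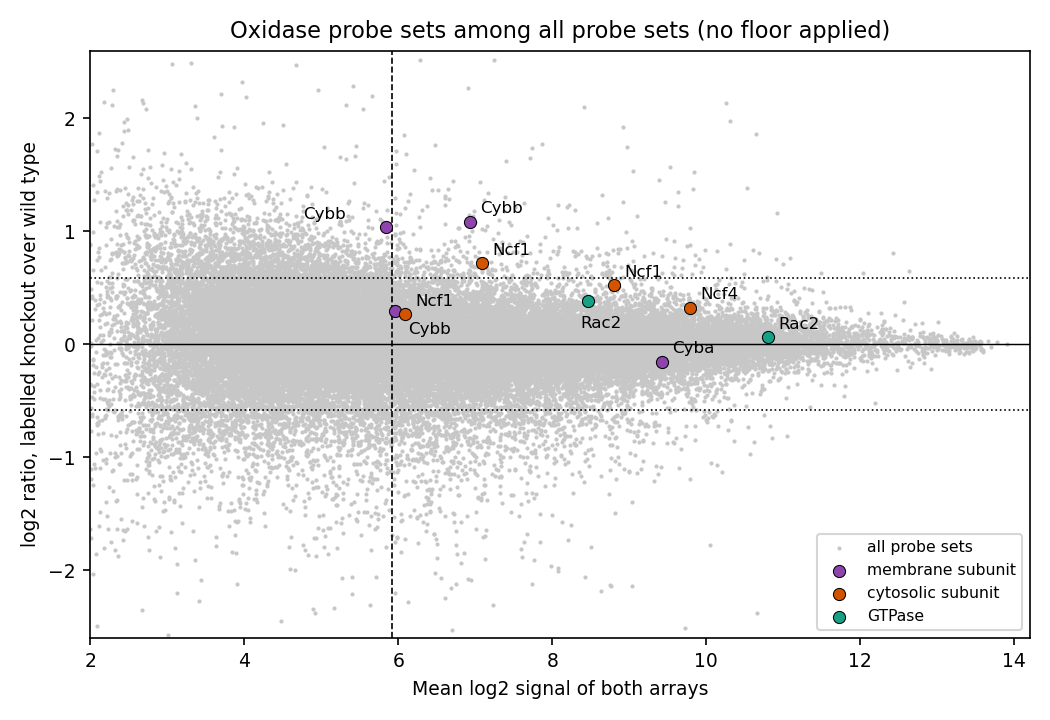
log2 ratio of the array labelled knockout over wild type against mean log2 signal for all probe sets (grey) and the oxidase probe sets (coloured by role), without a floor; dotted lines mark 1.5-fold, the dashed line marks the floor, and probe sets beyond the axes are not drawn. Cybb 1436778_at lies at 1.08 at the upper edge of the cloud, Cyba lies at -0.15, and the cloud narrows toward high signal.

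The membrane pair spanned a wider range of ratios than the cytosolic subunits. The mean log2 ratio was 0.47 for the membrane pair and 0.42 for Ncf1 and Ncf4, a difference of 0.04. With Rac2 counted on the cytosolic side its mean was 0.30. The membrane pair ranged from -0.15 to 1.08, while Ncf1 and Ncf4 ranged from 0.32 to 0.52 and differed from each other by 0.20. The membrane mean therefore describes neither of its genes. When each gene was read as the median of its probe sets instead, Cybb was 0.44 and the membrane minus cytosolic difference became -0.28. Both are lower bounds, because the Cybb median comes from a probe set under the floor in wild type (1436779_at, 1.04 without the floor). With a pseudocount of 1 floor the difference was -0.09, and with the floor at percentile 75 Cybb was not measured. The direction between the classes is therefore not settled. All 4 cytosolic probe sets and 3 of 4 membrane probe sets were higher on the array labelled knockout.

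Genes that regulate assembly of the oxidase mostly had ratios above 1, and few of them were far from 1. Of 22 genes listed, 20 were named on probe sets used here and all 20 were measured. At least 1.5-fold higher were 2 of 20 and lower 0 of 20, beside the shares of 1.71% and 2.63% for all measured genes. A ratio above 1 was found in 18 of 20, and the median log2 ratio was 0.22. Of the 18, 10 exceeded the SD of 0.22 between probe sets and 8 did not. Among the 7668 genes at least as bright as the dimmest of the 20, 48.8% had a ratio above 1 and the median was -0.0049. In 5 of the 20 genes the measured probe sets pointed both ways.

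The 2 past 1.5-fold were S100a8 and S100a9, which form calprotectin and carry arachidonic acid to the oxidase. S100a8 read 3584 and 2308 (log2 0.63) and S100a9 read 2486 and 1470 (log2 0.76). Both are also abundant granulocyte genes. Without them 16 of 18 genes had a ratio above 1, 0 passed 1.5-fold and the median was 0.20.

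Upstream of Rac, the 6 exchange factors all had ratios above 1, from 0.06 to 0.34 on the log2 scale, on their brightest probe sets. Another measured probe set was below 1 for Vav2 (log2 -0.21) and for Dock2 (-0.07), both named after their values were seen. The largest were those of Vav1 (416.3 and 329.9, log2 0.34) and Prex1 (376.6 and 323.7, log2 0.22), which load GTP onto Rac in leukocytes. Arhgdib, which holds Rac GTPases in the cytosol in their GDP-bound form, read 3634 and 2911 (log2 0.32). Among GTPases, Rhog read 888.0 and 624.2 (log2 0.51) and Rac3 212.9 and 177.1 (log2 0.27). Rac1, the ubiquitous relative of Rac2 and named after its value was seen, read 3988 and 3852 (log2 0.05). Both Rac1 and Rac2 thus had ratios near 1 on their brightest probe sets.

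Kinases that phosphorylate Ncf1 were also above 1 on their brightest probe sets. Prkcb, protein kinase C beta, read 225.9 and 168.1 (log2 0.43), and its lowest measured probe set gave 0.40. Prkcd, protein kinase C delta, read 431.9 and 368.7 (log2 0.23), with another probe set at -0.15. Hvcn1, the proton channel that offsets the charge moved by the oxidase, read 282.9 and 223.4 (log2 0.34). Cybc1, the chaperone needed for Cybb and Cyba protein, read 1420 and 1340 (log2 0.08). The 2 genes below 1, named after their values were seen, were Rap1a (log2 -0.02), a small GTPase that copurifies with the flavocytochrome, and Pla2g4a (log2 -0.05), which releases arachidonic acid. Both of these ratios are smaller than the SD of 0.22 between probe sets.

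**Figure D3:**
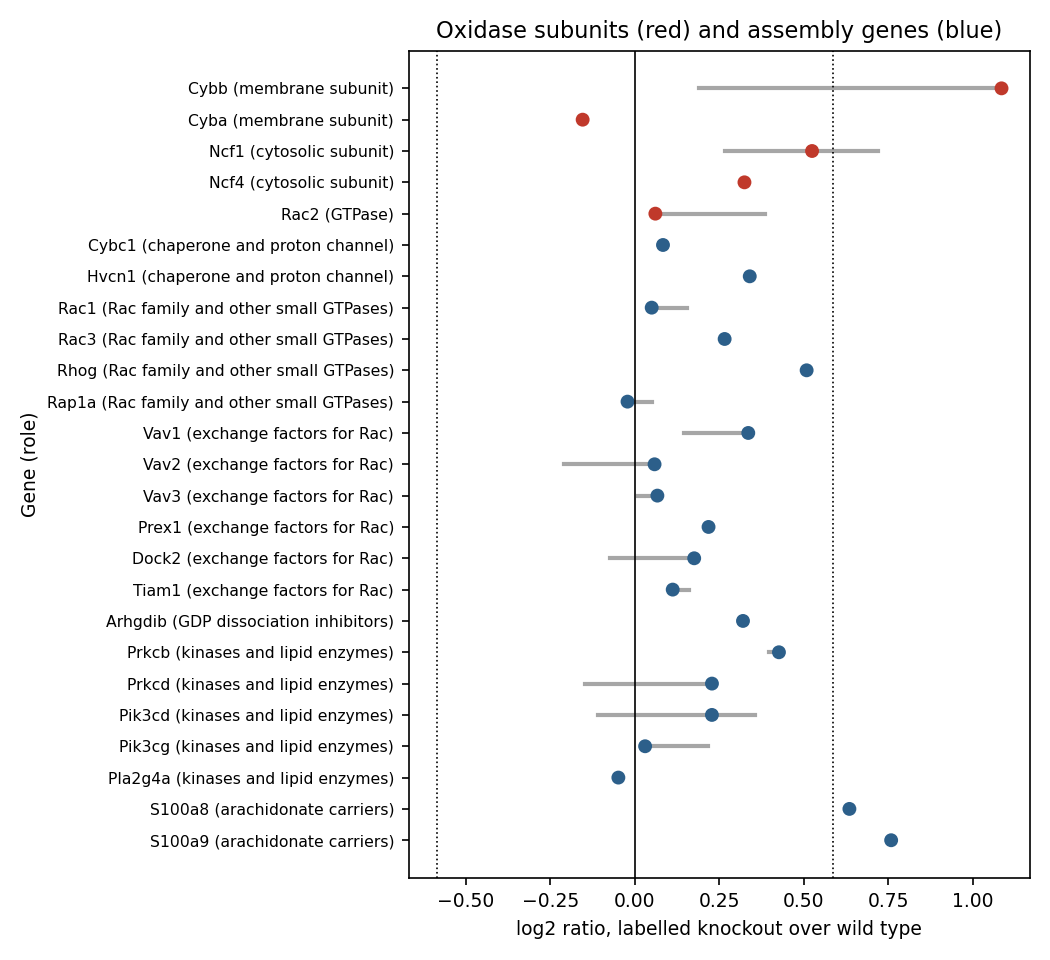
log2 ratio of the array labelled knockout over wild type for the 5 oxidase subunits (red) and 20 assembly genes (blue); points are the brightest probe set, grey bars span all measured probe sets of the gene, and dotted lines mark 1.5-fold. Of the 20 assembly genes 18 lie right of 0, with S100a8 and S100a9 past the dotted line, and the Cyba point is the lowest.

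No other listed member of the NADPH oxidase family with a probe set used here exceeded the floor. Of 9 genes listed, Nox1, Nox3, Duox2 and Noxa1 had no such probe set, so nothing was measured for them. The other 5 were named on probe sets used here, and all 5 were under the floor on both arrays. These were Nox4 (17.3 and 9.97 signal units), a constitutively active catalytic subunit that also pairs with Cyba, the dual oxidase gene Duox1 (29.0 and 26.6), the Nox1 organizer Noxo1 (59.8 and 57.4) and the maturation factors Duoxa1 (45.2 and 38.8) and Duoxa2 (24.3 and 23.4). No ratio was taken from them. They were named after their values were seen.

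Granulocyte markers were higher on the same array as Cybb, Ncf1 and Ncf4. Of 18 genes listed, 16 were named, 15 were measured, and 11 of 15 were higher by 1.5-fold or more while 0 were lower by that size. Among all measured genes these shares were 1.71% and 2.63%. The median log2 ratio was 0.65. Summed over the named genes, the signal reached 39020 in the RNA labelled knockout and 24968 in wild type, and Mmp8 was under the floor on both. The leading genes were Lcn2 (log2 1.26), Ms4a3 (1.17) and Chil3 (0.93). The log2 ratios of the list ran from -0.04 to 1.26. Cybb lay above the list's median, Ncf1, Ncf4 and Rac2 lay below it but within the range, and Cyba lay below the range. Monocyte and macrophage markers had 12 of 16 genes measured, of which 1 was higher by 1.5-fold or more and 0 were lower by that size. Their median was 0.22 and their summed signal 3492 against 2329. The ratio was above 1 for 7 of the 12 and below 1 for 5. F13a1 (log2 1.57), Itgam (0.46) and Csf1r (0.45) had the largest ratios in size, and the largest below 1 was that of C1qc (-0.38). Without F13a1, which read 1273 against 428, the summed signal was 2219 against 1901. Cd14 and Ms4a7 did not exceed the floor on either array. Whether cells that express these markers contributed to the oxidase ratios was not tested.

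Of 16 HSC markers listed, 14 were measured and all 14 were above the floor on both arrays, among them Kit and Cd34. This shows that these transcripts were present, and does not by itself identify the cells. Of the 14 genes, 6 were at least 1.5-fold lower and 0 higher (median -0.26, summed signal 15800 against 16862), led by Fgd5 (-1.38), Mllt3 (-1.17) and Hlf (-1.13). The list mixes HSC and progenitor genes, so its median and sum do not describe HSC genes alone. Its highest ratio was that of Cd48 (0.49), and Flt3 (0.19) is in the dendritic list as well. Over all measured genes 2.63% were lower by that size and 1.71% higher. Medians of the other lists were 0.51 for mast cells and basophils (7 measured), 0.52 for B cells (8), 0.37 for T and NK cells (4), -0.31 for dendritic cells (6) and -0.14 for erythroid cells (8). The summed B cell signal went the other way from its median, 2189 against 4471, and included Ighm at 707 against 3684 (log2 -2.38). Of the 8 measured B cell genes, 7 had a ratio above 1 and Ighm was the only 1 below. Vpreb1 (log2 1.78) and Igll1 (1.62) had the next largest ratios in size. The dendritic median depended on the floor and on the probe sets used, at 0.02 for a floor at percentile 25, 0.0096 when none was set and 0.19 without _x_at and _s_at probe sets. The HSC median was 0.0061 with the floor at percentile 75. Cd3d, Cd3e, Cd3g and Cd4 were under the floor on both arrays. Kit, Cd34, Cd48, Flt3, C1qc, these T cell genes and the markers named above as under the floor were named after their values were seen. The single Sirt6 probe set read 173.6 on the array labelled knockout and 123.9 in wild type, so it does not show the loss of the targeted gene. The sources used here do not say which part of the transcript it covers, and every direction above rests on the label.

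**Figure D4:**
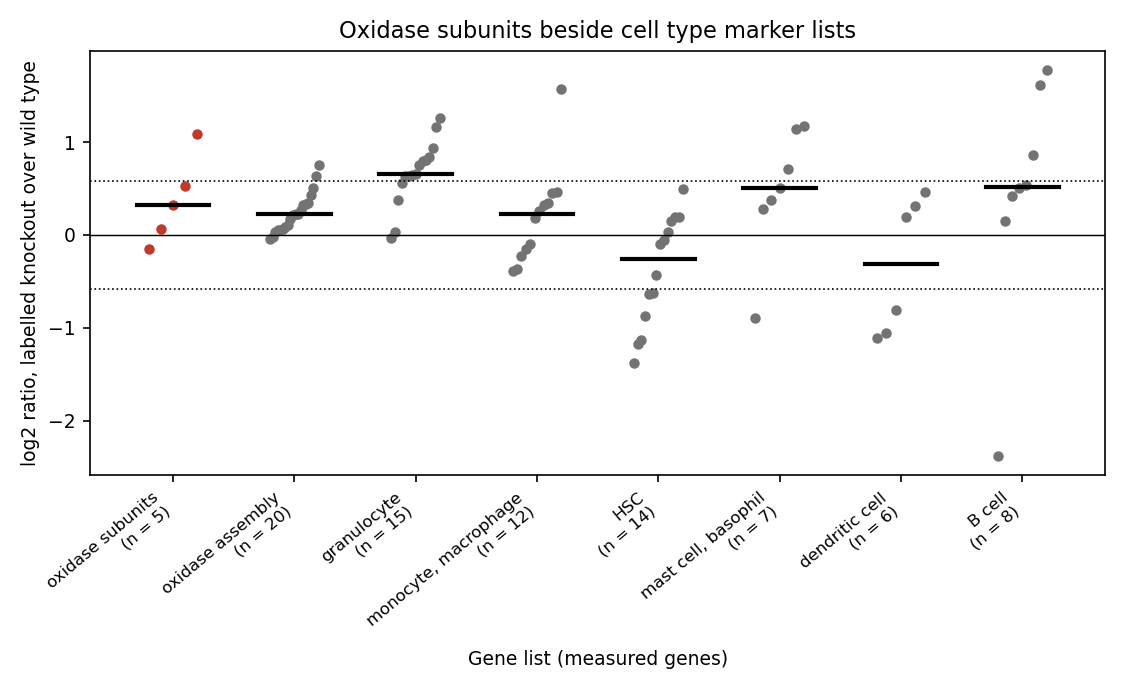
log2 ratios of the measured genes of each list (points) and their median (bar), with dotted lines at 1.5-fold. The median of the oxidase subunits (red) is 0.32, and their points run from -0.15 to 1.08. The other medians are 0.65 for granulocytes, 0.52 for B cells, 0.51 for mast cells and basophils and 0.22 for the assembly genes. They are 0.22 for monocytes and macrophages, -0.26 for HSC and -0.31 for dendritic cells.

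Cybb lies on the X chromosome, and sex-linked genes differed between the arrays. The Y-linked genes Eif2s3y (log2 -1.03), Uty (-0.89) and Kdm5d (-0.70) were lower on the array labelled knockout. Their brightest probe sets exceeded the floor on both arrays (Eif2s3y 315.7 against 645.5, Uty 78.0 against 144.5, Kdm5d 178.7 against 290.2). On the array labelled knockout Xist read 5224 against 3365 (log2 0.63), with its other probe sets between -0.83 and 1.98. Xist and Y-linked signal were thus present on both arrays. The part of the sex-linked difference in the Cybb ratio was not tested. The other 4 subunit genes had smaller ratios than Cybb, by 0.56 (Ncf1), 0.76 (Ncf4), 1.02 (Rac2) and 1.24 (Cyba) on the log2 scale.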

How the data were processed

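Signal intensities on a linear scale were deposited for each probe set of each array, and the submitters' processing notes name MAS5. The sources used here give no version, scaling target or detection call. Median signals were 60.7 (labelled knockout) and 60.8 (wild type), so no further scaling was applied before taking log2. Precision is limited by the number of arrays, 1 per genotype. A probe set took its gene from the platform annotation if that listed 1 gene (34945 of 45037 did), and the 5 members matched RefSeq records (GRCm38.p6) by symbol. The brightest probe set stood for a gene. Signals below the floor (60.5) were set to it, which makes the ratio a bound. Members and lists were chosen with earlier results of these data known. The text names every member probe set, Sirt6, sex-linked genes, oxidase assembly genes past 1.5-fold, the 2 largest ratios of each role there and, for lists described by gene, the 3 largest; others are marked. Tried as alternatives were quantile normalization, median centring and loess (span 0.3, statsmodels 0.14.6) for scale, percentiles 25 and 75 or none for the floor, the floor added as a pseudocount, medians over a gene's probe sets, omission of _x_at and _s_at probe sets, and a 2-fold size. Python 3.11.15 was used with numpy 2.4.6, pandas 2.3.3 and, for plots, matplotlib 3.10.9. The procedure was checked on simulated data with planted changes larger than any member ratio, scored at 2-fold. That check does not cover calls at 1.5-fold or the wider spread at low signal.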

Additional observations from a re-analysis of the deposited data

How the results depend on the processing

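With 1 array per genotype, a count was taken as stable when it changed by 1.5-fold or less. A ratio or median was taken as stable when it moved by less than the SD of 0.22 between probe sets. Quantile normalization, median centring and loess moved no member value past it, and the median of all genes stayed between 0.0023 and 0.02. Cyba stayed between -0.15 and -0.14 and Ncf4 between 0.30 and 0.33 under every alternative that measured them. The Cybb gene ratio was 0.72 with a pseudocount of 1 floor, and with the floor at percentile 75 Cybb was not measured. As the median over probe sets the Cybb ratio was 0.44, a lower bound from 1436779_at. That probe set moved from 0.44 to 1.04 with the floor at percentile 25 and also with no floor. Member genes at least 1.5-fold higher then numbered 0 with the floor at percentile 75 and 0 with the median over probe sets. Member probe sets numbered 0 with the floor at percentile 75, 1 with the pseudocount and 1 at 2-fold. The membrane minus cytosolic difference was -0.28 (a lower bound) with the median over probe sets and -0.09 with the pseudocount. It had no value with the floor at percentile 75. Assembly genes at least 1.5-fold higher numbered 1 without _x_at and _s_at probe sets, 0 at 2-fold and 0 without S100a8 and S100a9, a choice made after seeing the data. All genes at least 1.5-fold higher and lower numbered 461 and 462 with the floor at percentile 25, 83 and 93 at percentile 75, 986 and 693 with no floor and 113 and 161 with the pseudocount, and 46 and 66 were past 2-fold. Among marker lists, medians moved with the floor for T and NK cells (0.15 at percentile 25), B cells (0.21 at percentile 75), HSC and dendritic cells. The floors change which dim probe sets count, and the pseudocount shrinks ratios of dim ones; the cause of the other changes was not tested. No paired analysis was possible because each genotype has 1 array.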
